A study of Rattus norvegicus with 20 samples.

Results

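Of the mature miRNAs made from the imprinted Dlk1-Dio3 region, 6 were measured in pachytene spermatocytes and round spermatids of rats given cyclophosphamide or saline. They are rno-miR-770-3p, rno-miR-370-3p, rno-miR-494-3p, rno-miR-667-3p, rno-miR-487b-3p and rno-miR-134-5p, written below without the prefix for rat. They were chosen by name as the cluster's miRNAs detected in these germ cells, and they are 6 of the 677 miRNAs on the array. Detection was therefore used to choose them and is given below as a description. Spermatid arrays fell into 2 sets by slide for several of these miRNAs. With the slide in the model, 4 of the 6 were higher in spermatids than in pachytene spermatocytes and miR-134-5p was lower, under both treatments, in fits that called 49.8% of all tested miRNAs under saline and 58.1% under cyclophosphamide. Slide 3 held only spermatid arrays, so these differences rest mainly on the spermatids of slides 1 and 2. Under saline those are rats 15 and 16 alone. Without slide 3, miR-134-5p did not pass under saline, nor miR-494-3p under cyclophosphamide. With normexp background correction (offset 50) and no slide term, 0 of the 6 passed between the cell types. None of the 6 passed the test for an effect of the drug.

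The Dlk1-Dio3 region holds protein-coding genes expressed from the chromosome inherited from the father (Dlk1, Rtl1, Dio3) and non-coding RNAs expressed from the chromosome inherited from the mother, among them Meg3 and a large group of miRNAs. The imprint is a methylation mark that the male germ line lays down on the region before meiosis, so that sperm carry a methylated copy. A miRNA pairs with messages mainly through its seed, bases 2 to 8, and lowers their translation or stability. The region's miRNAs are best known from brain, embryo and placenta, and miR-134-5p is known as a regulator of dendritic spine growth in neurons through Limk1.

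The mature sequences, from RefSeq on the GRCr8 assembly, show that the 6 miRNAs share a locus and no seed, which is marked in capitals.
miR-770-3p: gUGGGCCUgacguggag
miR-370-3p: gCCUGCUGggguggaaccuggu
miR-494-3p: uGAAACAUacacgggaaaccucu
miR-667-3p: uGACACCUgccacccagcccaa
miR-487b-3p: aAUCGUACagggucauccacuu
miR-134-5p: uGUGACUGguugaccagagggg

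The 6 seeds were distinct, and none was found in another of the 607 array miRNAs whose names were in the sequence table. All 6 hairpins lie on the plus strand of chromosome 6 in GRCr8. In the order of the genes, Mir770 (chr6:134298084-134298159) lies inside the gene Meg3. Mir370 (chr6:134354491-134354569) follows beyond Rtl1. Mir494 (chr6:134550115-134550197), Mir667 (chr6:134555337-134555428), Mir487b (chr6:134562890-134562971) and Mir134 (chr6:134570313-134570385) come next, before Dio3. These 4 hairpins span 20.3 kb, and all 6 span 272 kb. Mature miR-770-3p has 17 bases and was the only one so short among 196 tested miRNAs found in the table, whose median was 22. The GC content was 70.6% for miR-770-3p, 68.2% for miR-370-3p, 63.6% for miR-667-3p, 59.1% for miR-134-5p, 45.5% for miR-487b-3p and 43.5% for miR-494-3p, against a median of 47.6% over the same 196.

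The 4 groups were pachytene spermatocytes, which are in meiosis, and round spermatids, the haploid cells that follow, each from Sprague-Dawley males on saline or on cyclophosphamide, an alkylating anticancer drug. The drug was gavaged at 6 mg/kg on 6 days a week for 4 weeks. Cells were separated by size with unit gravity sedimentation (STA-PUT), so the fractions are enriched and not sorted by a marker. Each group had 5 arrays, 20 in all, from 100 ng of total RNA per array in 1 colour (Cy3). The rat numbers were 7, 15, 16, 16 and 29 for cyclophosphamide pachytene cells. There the number 16 is labelled with an earlier and a later year, written below as the earlier and the later 16. The labels do not say whether these are separate animals. The rat numbers were 13, 16, 25, 26 and 28 for saline pachytene cells, 14, 15, 16, 25 and 26 for cyclophosphamide spermatids, and 15, 16, 17, 25 and 28 for saline spermatids. The p-values below describe differences among rats only as far as these numbers stand for separate animals.

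Before scaling, the 75th percentile of signal ranged from 141 to 571 between arrays, and 181 to 281 miRNAs were called detected. Slide 1 held 2 arrays of each pachytene group, 3 of cyclophosphamide spermatids and 1 of saline spermatids. Slide 2 held 3 of each pachytene group and 1 of each spermatid group. Slide 3, scanned on another day than slides 1 and 2, held no pachytene array, 1 array of cyclophosphamide spermatids (rat 26) and 3 of saline spermatids (rats 17, 25 and 28). The germ cell list (miR-34b-5p, miR-34c-5p and miR-449a-5p) was detected on every array of every group, 3 of 3 miRNAs.

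Most of the region's miRNAs were not detected at this sensitivity. The gene table places 59 miRNA genes between Dlk1 and Dio3, with 100 mature miRNAs, and 99 miRNAs of the region were on the array. Of these, 18 were called detected on at least 1 array and 81 on none. To enter the tests a miRNA had to be detected on each array of some group, which 7 did in the region and 217 on the array. The 6 miRNAs described here are all but 1 of those 7. The other, miR-409a-3p, was detected on 17 arrays, among them all 5 of saline spermatids and 4 of each other group, and miR-3544 came next with 13. Within the 6, miR-667-3p was detected on 18 arrays and the others on all 20. Of the opposite arms of the 6 precursors, all on the array, miR-667-5p was detected, on 2 arrays, and the other 5 on none.

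All levels are log2 of the array signal scaled to each array's 75th percentile, with a floor of 3.61, and each miRNA is compared with itself across arrays. rno-miR-487b-3p parted the spermatid arrays by slide. In pachytene cells it stood at 6.39, 6.62, 6.36, 6.06 and 6.18 in saline rats 13, 16, 25, 26 and 28. In cyclophosphamide rats 7, 15, the earlier 16, the later 16 and 29 it was 6.37, 6.22, 6.04, 6.28 and 6.30. The 2 pachytene groups overlapped. In saline spermatids it was 7.30 and 7.24 in rats 15 and 16, on slides 1 and 2, and 5.91, 5.82 and 5.78 in rats 17, 25 and 28, on slide 3. In cyclophosphamide spermatids it was 7.14, 7.23, 7.04 and 7.51 in rats 14, 15, 16 and 25, on slides 1 and 2, and 6.01 in rat 26, on slide 3. All 6 spermatid arrays of slides 1 and 2 lay above all 10 pachytene arrays, and all 4 of slide 3 lay below them.

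rno-miR-770-3p, from inside Meg3, had the same split without crossing the pachytene cells. It stood at 4.79, 5.13, 4.89, 4.77 and 4.88 in saline pachytene rats 13, 16, 25, 26 and 28. Cyclophosphamide pachytene rats 7, 15, the earlier 16, the later 16 and 29 had 5.05, 5.01, 5.08, 5.67 and 5.19. The later 16 was the high one. Saline spermatids had 5.79 and 6.32 in rats 15 and 16, and 5.17, 5.06 and 4.96 in rats 17, 25 and 28 on slide 3. Cyclophosphamide spermatids had 6.30, 5.98, 5.73 and 5.80 in rats 14, 15, 16 and 25, and 5.22 in rat 26 on slide 3. All spermatid arrays of slides 1 and 2 exceeded all pachytene arrays, and those of slide 3 lay among the pachytene values. Together, miR-487b-3p and miR-770-3p had all spermatid arrays of slides 1 and 2 above all pachytene arrays, beside 17.5% of tested miRNAs. On the same 2, slide 3 lay below all other spermatid arrays, beside 10.1%, and on 2, miR-134-5p and miR-487b-3p, below all pachytene arrays, beside 22.1%.

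For rno-miR-370-3p, which lies past Rtl1, the saline pachytene values were 3.95, 4.24, 4.03, 4.20 and 4.54, near the floor. The cyclophosphamide pachytene values were 4.38, 4.04, 4.26, 4.68 and 4.62. The groups overlapped. Saline spermatids had 4.94 and 5.21 in rats 15 and 16, and 4.64, 4.00 and 3.89 on slide 3. Cyclophosphamide spermatids had 5.36, 5.38, 5.02 and 4.47 in rats 14, 15, 16 and 25, and 3.68 in rat 26, where 2 of 10 spots were well above background. Slide 3 again held low values, with 1 overlap between the slides, rat 17 against cyclophosphamide rat 25.

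rno-miR-134-5p was the member that was lower in spermatids. Saline pachytene rats 13, 16, 25, 26 and 28 had 5.97, 6.29, 5.93, 5.88 and 5.98. Cyclophosphamide pachytene rats 7, 15, the earlier 16, the later 16 and 29 had 6.26, 6.34, 6.07, 6.18 and 6.11. Rat 16 was the high saline array. Saline spermatids had 5.82 and 5.59 in rats 15 and 16, and 5.22, 5.03 and 5.26 on slide 3. Cyclophosphamide spermatids had 5.95, 5.99, 5.56 and 5.51 in rats 14, 15, 16 and 25, and 5.57 in rat 26 on slide 3. Within each treatment no spermatid array reached a pachytene array.

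For rno-miR-494-3p, the saline pachytene values were 9.504, 9.72, 9.57, 9.46 and 9.60. The cyclophosphamide pachytene values were 9.62, 10.20, 9.59, 10.20 and 10.20. They overlapped, with 3 drug arrays above all saline arrays. Saline spermatids had 9.91, 11.08, 9.95, 9.998 and 9.59 in rats 15, 16, 17, 25 and 28. Cyclophosphamide spermatids had 11.14, 10.69, 10.11, 10.03 and 9.99 in rats 14, 15, 16, 25 and 26. The high values, in cyclophosphamide rat 14 and saline rat 16, were on the spermatid arrays of lowest signal, with 75th percentiles of 176 and 141, and the same 2 arrays held the 2 highest values of miR-770-3p.

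rno-miR-667-3p was at or next to the floor in pachytene cells, between 3.61 and 3.64 on all 10 arrays, where 0 to 5 of the 10 spots of its probe were well above background. In saline spermatids it ranged from 3.61 to 3.94, highest in rat 16. Cyclophosphamide spermatids had 4.28, 3.69, 3.67, 3.79 and 4.06 in rats 14, 15, 16, 25 and 26, with 1 to 8 spots well above background. It entered the tests through the spermatid groups alone, so a higher value there was built into its choice. Its differences between the cell types are therefore given as a description and counted among no calls.

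**Figure D1:**
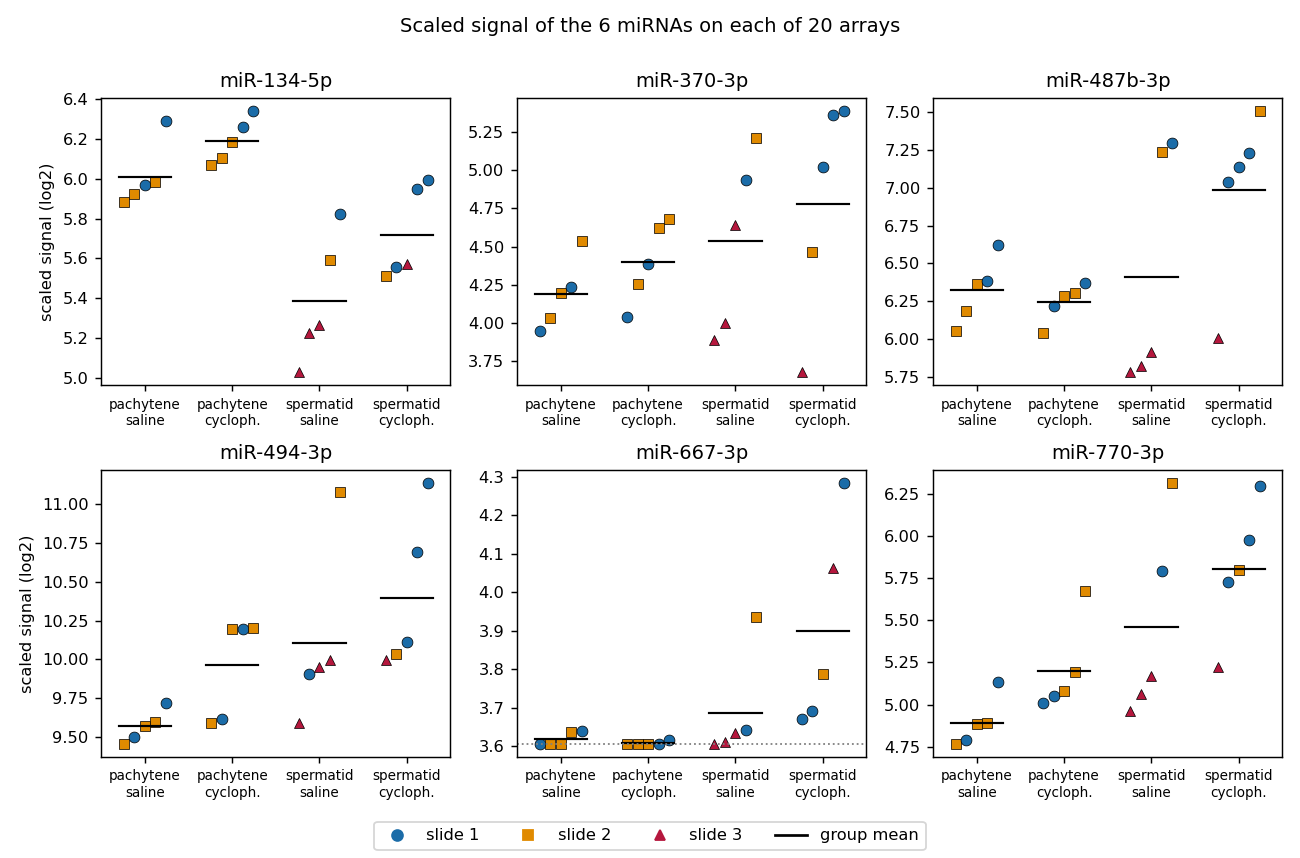
Scaled signal (log2) of each miRNA on each array, by group, with slides 1, 2 and 3 as circles, squares and triangles, the group mean as a bar and the floor of 3.61 as a dotted line for miR-667-3p. The 4 slide 3 arrays of miR-487b-3p lie at 6.01 or lower and the other 6 spermatid arrays at 7.04 or higher.

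The slide difference was tested among the 10 spermatid arrays with the treatment in the model (limma, Benjamini-Hochberg adjustment over 217 miRNAs). On slide 3, miR-487b-3p was 2.54-fold lower (log2 difference -1.35 ± 0.10 SE, adjusted p = 8.47e-05), miR-370-3p 2.13-fold lower (-1.09 ± 0.25, 0.0361) and miR-770-3p 1.85-fold lower (-0.89 ± 0.16, 0.0116). Thus 3 of the 6 were called, all lower, where 8.29% of all tested miRNAs were called and 6.91% were called lower. The values of miR-134-5p (-0.39 ± 0.14, adjusted p = 0.157), miR-494-3p (-0.59 ± 0.31, 0.315) and miR-667-3p (-0.02 ± 0.15, 0.984) did not pass. The median over the 6 was -0.74, and over all tested miRNAs -0.01. miR-409a-3p, the other tested miRNA of the cluster, stood higher on slide 3, by 1.03 ± 0.19. It was at 4.51 to 5.31 there, 3.66 to 4.25 in the other spermatids and 3.61 to 3.66 in pachytene cells. It entered the tests through saline spermatids, 3 of whose 5 arrays were on slide 3, so its choice favoured a high value there. Its difference is therefore given as a description. The call of miR-487b-3p held without any 1 array. That of miR-770-3p was lost without cyclophosphamide rat 26 (-0.99, adjusted p = 0.0606). That of miR-370-3p was lost without cyclophosphamide rat 16 or 26 or saline rat 15, 16, 25 or 28, with differences from -1.21 to -0.90 and adjusted p from 0.0598 to 0.227. With normexp background correction, and with no scaling between arrays, 0 of the 6 were called and 1 miRNA in all, with miR-487b-3p at -0.66 and -1.08.

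The 4 rats of slide 3 and the slide cannot be told apart. The summed level of a Sertoli and gonadal list was lower on slide 3. Of its 4 miRNAs (miR-202-5p, miR-202-3p, miR-132-3p and miR-212-3p), 3 were detected on every array of each spermatid group and miR-202-5p on none. Its summed level was 8.03 to 8.21 on slide 3, 8.92 to 9.23 in the other spermatids and 8.55 to 8.95 in pachytene cells. Of the 3 tested, miR-212-3p passed for slide 3 (-1.13, limma adjusted p = 8.47e-05), while miR-202-3p stood at -0.37 (0.426) and miR-132-3p at -0.26 (0.302). Its part in the result was not tested. Among pachytene arrays, slides 1 and 2 differed for 0 of the 6 miRNAs at the same threshold, where 24.4% of tested miRNAs were called. The nearest was miR-134-5p, at -0.19 ± 0.06 on slide 2 (limma adjusted p = 0.0541).

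**Figure D2:**
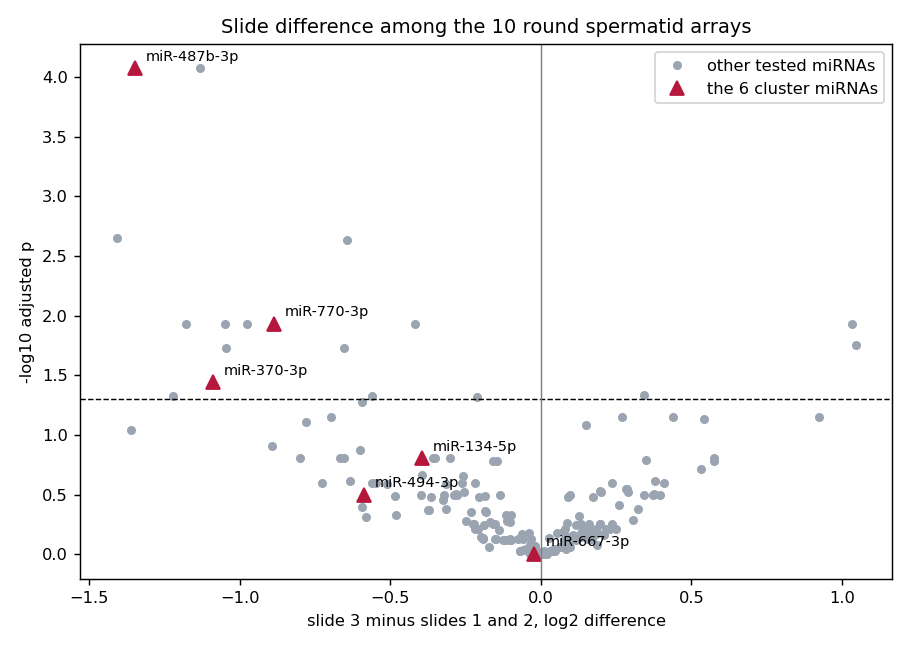
Difference between slide 3 and slides 1 and 2 among the 10 spermatid arrays (log2, horizontal) against -log10 of the limma adjusted p (vertical), with the cluster miRNAs as red triangles, the other tested miRNAs as grey circles and the 0.05 threshold dashed. miR-487b-3p, miR-370-3p and miR-770-3p lie above the threshold on the lower side.

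Between the cell types, miR-134-5p fell and miR-770-3p rose from pachytene spermatocytes to round spermatids under saline. miR-134-5p was 1.54-fold lower (log2 difference -0.62 ± 0.14 SE, limma adjusted p = 0.000767), and miR-770-3p was 1.48-fold higher (0.57 ± 0.23, 0.0462). These calls, 2 of the 5 miRNAs other than miR-667-3p, stand beside 48.4% of all tested miRNAs called, 26.3% higher and 22.1% lower. The other values were 0.53 ± 0.25 for miR-494-3p (adjusted p = 0.0823), 0.34 ± 0.29 for miR-370-3p (0.350) and 0.09 ± 0.30 for miR-487b-3p (0.834). miR-667-3p stood at 0.07. In these enriched fractions, fewer cells of a type and less RNA per cell cannot be told apart.

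Under cyclophosphamide, miR-134-5p was again lower in spermatids, by 0.47 ± 0.14 on the log2 scale (1.39-fold, limma adjusted p = 0.00690). miR-487b-3p was 1.67-fold higher (0.74 ± 0.30, 0.0420) and miR-770-3p 1.52-fold higher (0.61 ± 0.23, 0.0313). These are 3 of the same 5, beside 53.9% of all tested miRNAs, 30.9% higher and 23.0% lower. miR-370-3p (0.39 ± 0.29, adjusted p = 0.274) and miR-494-3p (0.43 ± 0.25, 0.152) did not pass, and miR-667-3p stood at 0.29. Of the 5, miR-134-5p was the one whose groups did not overlap, under saline beside 34.6% of tested miRNAs and under cyclophosphamide beside 42.4%.

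With the slide as a block, the differences of miR-370-3p, miR-487b-3p, miR-494-3p and miR-770-3p between the cell types were larger. As slide 3 held no pachytene array, blocked differences rest mainly on the spermatids of slides 1 and 2, under saline rats 15 and 16. Under saline, miR-770-3p was then at 1.11 ± 0.17 (limma adjusted p = 1.95e-05), miR-370-3p at 0.998 ± 0.23 (0.00151), miR-494-3p at 0.89 ± 0.27 (0.0108), miR-487b-3p at 0.89 ± 0.13 (1.13e-05) and miR-134-5p at -0.42 ± 0.11 (0.00529). These were all of the 5, where the blocked fit called 49.8% of tested miRNAs and 26.3% as higher. Under cyclophosphamide the 5 were called as well, where 58.1% of tested miRNAs were, with miR-487b-3p at 0.99 ± 0.11 (5.35e-07), miR-770-3p at 0.81 ± 0.15 (0.000122), miR-370-3p at 0.61 ± 0.20 (0.0171), miR-494-3p at 0.56 ± 0.24 (0.0494) and miR-134-5p at -0.46 ± 0.10 (0.000747). The median over all tested miRNAs was 0.10 under saline and 0.06 under cyclophosphamide in the blocked fit. miR-667-3p stood at 0.08 and 0.30. Without slide 3 altogether, 4 of the 5 were called under each treatment, beside 41.9% and 52.1% of tested miRNAs. miR-370-3p, miR-487b-3p and miR-770-3p were among the 4 both times, with miR-494-3p under saline and miR-134-5p under cyclophosphamide.

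Slides 1 and 2 were also fitted alone, although some groups then have a single array, which is assumed to vary like the others. Within slide 1, miR-487b-3p was higher in spermatids by 0.79 under saline and 0.84 under cyclophosphamide (limma adjusted p = 0.0107 and 0.00104), and within slide 2 by 1.04 and 1.30 (0.00596 and 0.00250). It was the member whose call and direction were alike in these 4 fits. miR-770-3p stood at 0.83 and 0.97 within slide 1 and at 1.47 and 0.49 within slide 2, the last without passing (adjusted p = 0.163). miR-370-3p stood at 0.84 and 1.04 within slide 1, and at 0.95 and -0.05 within slide 2, where cyclophosphamide is rat 25 alone. miR-494-3p stood at 0.29 and 0.74 within slide 1, neither passing (adjusted p = 0.651 and 0.0757), and at 1.53 and 0.04 within slide 2. miR-134-5p stood at -0.30 and -0.47 within slide 1 (0.418 and 0.0647) and at -0.34 and -0.61 within slide 2 (0.00876 and 0.00141).

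**Figure D3:**
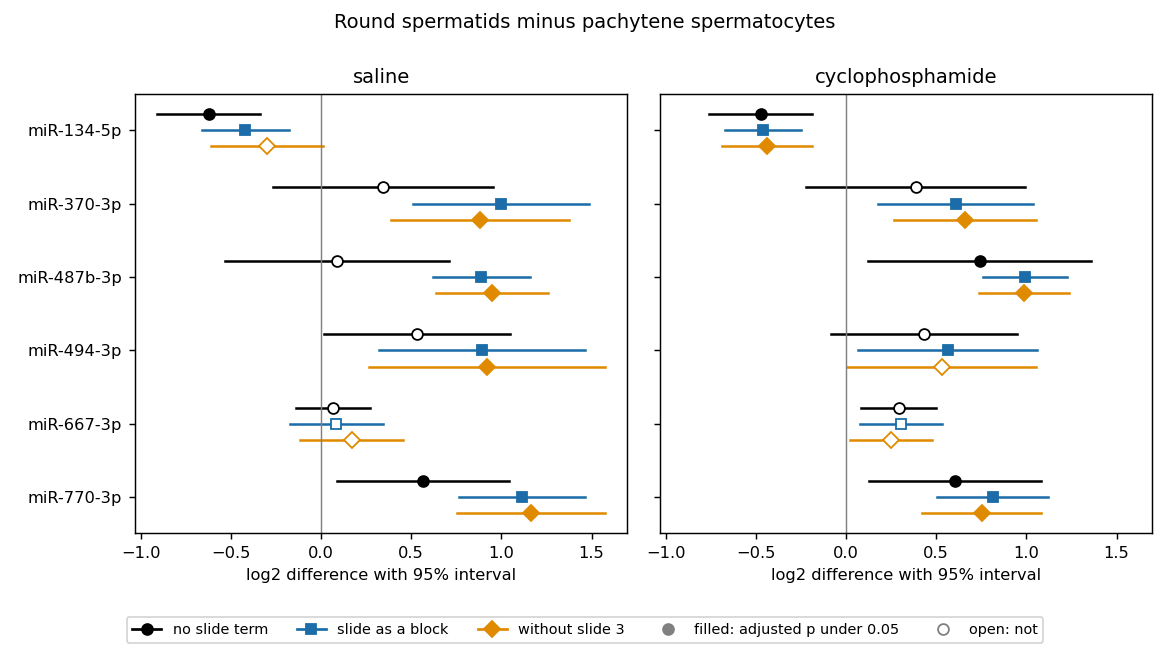
Differences between round spermatids and pachytene spermatocytes (log2, horizontal, with 95% intervals) for each miRNA under saline (left) and cyclophosphamide (right), with no slide term (circles), with the slide as a block (squares) and without slide 3 (diamonds); filled symbols have an adjusted p under 0.05, except that miR-667-3p is drawn open throughout as a description. For miR-487b-3p under saline the difference is 0.09 with no slide term and 0.89 with the block.

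In the fit with no slide term, the cell-type calls of miR-770-3p and miR-487b-3p lay near the threshold and were lost with 1 array fewer, often with a difference about as large, while those of miR-134-5p were not lost. Its calls held without any 1 array, with differences from -0.73 to -0.53 under saline and -0.54 to -0.42 under cyclophosphamide. The saline call of miR-770-3p was lost without spermatid rat 15 (0.48, limma adjusted p = 0.108) or 16 (0.35, 0.143), or without pachytene rat 13, 25, 26 or 28, where the difference stayed at 0.54 to 0.57 (adjusted p from 0.0718 to 0.0863). Its cyclophosphamide call was lost without pachytene rat 7, 15, the earlier 16 or 29, or spermatid rat 14, 15 or 25, with differences from 0.48 to 0.61 (adjusted p from 0.0515 to 0.0896). The cyclophosphamide call of miR-487b-3p was lost without any 1 cyclophosphamide array other than spermatid rat 26, with differences from 0.61 to 0.77 (adjusted p from 0.0535 to 0.107). Conversely, miR-370-3p was called under cyclophosphamide without spermatid rat 26 (0.66, 0.0340), and miR-494-3p under saline without spermatid rat 28 (0.66, 0.0398). Without the dim arrays of saline rat 16 and cyclophosphamide rat 14, miR-770-3p stood at 0.35 (0.111) and 0.48 (0.0320).

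Normexp background correction, with an offset of 50 added to each signal before scaling, ended every cell-type call of the 6 under both treatments. Still called were 29 and 38 of 217 miRNAs. The part of the offset in this was not tested. With normexp, the saline difference of miR-134-5p turned to 0.10, where the median over all tested miRNAs was 0.44. Its cyclophosphamide difference stayed below 0, at -0.29 (limma adjusted p = 0.594). With no scaling, which put that median at -0.37 and -0.22, miR-134-5p stood at -1.10 and -0.88 and was the 1 member called under each treatment. Summed levels of 2 lists for other cell types were higher in spermatids, without every miRNA of a list being so. The 9 markers of endothelium, muscle and mesenchyme, of which 6 or 7 were detected on every array of a group, summed to 10.97 to 11.91 in spermatids and 9.20 to 10.57 in pachytene cells. Of the 7 tested, 5 rose under each treatment (miR-143-3p, miR-145-5p, both arms of miR-199a and miR-214-3p), while the endothelial miR-126a-3p stood at -0.73 under saline (limma adjusted p = 0.0583) and fell by 0.83 under cyclophosphamide (0.0294), and miR-126a-5p stood at -0.38 and -0.09. The 5 blood markers on the array, 2 of them detected on every array of each group and miR-144-3p on none, summed to 7.24 to 7.83 and 6.44 to 7.03. Of these, miR-223-3p rose by 2.15 and 1.95 under saline and cyclophosphamide, and miR-142-3p stood at 0.53 (0.0565) and rose by 0.76 (limma adjusted p = 0.00739). The spermatogonial and the Sertoli and gonadal lists were mixed. Under saline, spermatogonial miR-221-3p (-1.64), miR-222-3p (-1.40) and miR-21-5p (-0.20) were lower in spermatids and miR-146a-5p was higher (2.01). Of the Sertoli and gonadal list, miR-202-3p was lower (-1.77), miR-132-3p higher (0.33) and miR-212-3p at 0.02. The part of these lists in the differences of the 6 miRNAs was not tested.

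Cyclophosphamide did not change any of the 6 past the test in pachytene spermatocytes. Called miRNAs were 0 of 6, beside 0% of all tested miRNAs (0 of 217, limma, with 1 at an unadjusted p under 0.05, which is 0.461%). miR-134-5p stood at 0.18 (95% interval -0.10 to 0.47), miR-370-3p at 0.21 (-0.40 to 0.81), miR-487b-3p at -0.08 (-0.70 to 0.54) and miR-667-3p at -0.01 (-0.22 to 0.20). The interval of miR-494-3p ran from -0.13 to 0.91 and that of miR-770-3p from -0.17 to 0.78. With the slide as a block, the intervals narrowed to -0.30 to 0.14 for miR-487b-3p and 0.02 to 0.60 for miR-770-3p (unadjusted p = 0.0394, limma adjusted p = 1). A doubling of signal by the drug, which is 1 on this scale, lay outside all 6 intervals in both fits.

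In round spermatids the calls were again 0 of 6, beside 0% of all tested miRNAs (0 of 217, limma, with 5 at an unadjusted p under 0.05, which is 2.30%). All 6 values were positive, as were 61.8% of all tested miRNAs, and miR-134-5p and miR-667-3p were among the 5, with limma adjusted p = 0.848 each. Saline spermatids had 3 of their 5 arrays on slide 3 and cyclophosphamide spermatids 1 of 5. With the slide as a block, miR-370-3p turned to -0.19 (95% interval -0.63 to 0.26) and miR-770-3p to 0.01 (-0.31 to 0.33). miR-494-3p then stood at 0.06 (-0.46 to 0.58), miR-134-5p at 0.14 (-0.08 to 0.36) and miR-667-3p at 0.21 (-0.03 to 0.45). The interval of miR-487b-3p went from -0.05 to 1.19 without the block to -0.22 to 0.27 with it. Without slide 3, the 6 values lay between -0.10 (miR-770-3p) and 0.07 (miR-667-3p), with 3 above 0.

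Fits within a slide rest on a single array of at least 1 treatment. Within slide 2, saline rat 16 against cyclophosphamide rat 25, miR-494-3p stood at -1.04 and miR-370-3p at -0.74 without passing. miR-667-3p was called at -0.15 (limma adjusted p = 0.0331), where 12.4% of tested miRNAs were called, and its 2 values there, 3.94 and 3.79, lay close to the floor. Within slide 1, miR-494-3p stood at 0.74, the opposite direction, and within slide 3 at 0.15. The drug differences in spermatids and in pachytene cells were also set against each other in 1 test. Called were 0 of 6, beside 0% of all tested miRNAs (0 of 217, limma, with 1 at an unadjusted p under 0.05). The blocked values of that difference ran from -0.39 ± 0.29 for miR-370-3p to 0.22 ± 0.15 for miR-667-3p.

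**Figure D4:**
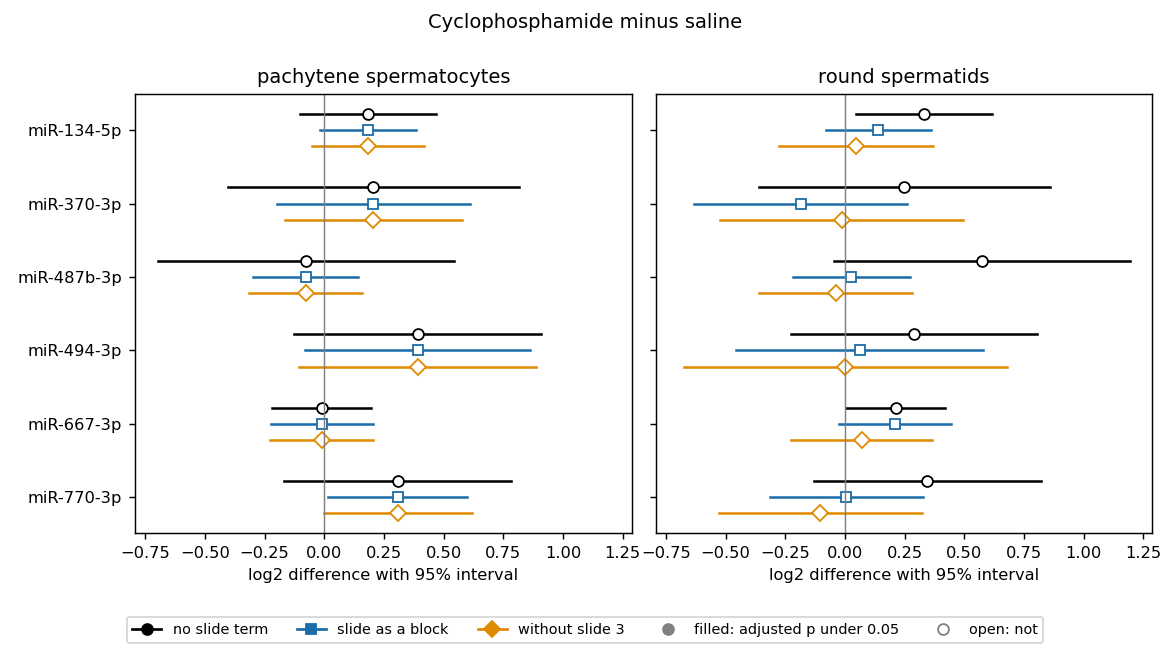
Differences between cyclophosphamide and saline (log2, horizontal, with 95% intervals) for each miRNA in pachytene spermatocytes (left) and round spermatids (right), with no slide term (circles), with the slide as a block (squares) and without slide 3 (diamonds). All symbols are open, since no adjusted p was under 0.05, and in spermatids the symbols move towards 0 once the slide is taken into account, except miR-667-3p with the block (0.21 in both fits).

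The 6 miRNAs were then compared across arrays of 1 cell type, in 15 pairs of miRNAs for each cell type. Within pachytene cells 11 of 15 pairs were positive, with a median Pearson r of 0.17 (range -0.39 to 0.72, n = 10), beside 0.04 over all pairs of tested miRNAs, and 0 passed after adjustment over the permutation tests of both cell types. The pair miR-494-3p and miR-770-3p had r = 0.72 (permutation p adjusted to 0.0590) and Spearman's rho = 0.78 (0.0533), and r = 0.97 without the 2 farthest arrays. After treatment and slide were removed, the median r in pachytene cells was 0.50 (range -0.16 to 0.70), beside 0.06 over all pairs of tested miRNAs, and in spermatids 0.42 (-0.37 to 0.95), beside 0.03. These are descriptions, and the points share array and scaling. In spermatids, slide 3 arrays lay apart for miR-487b-3p and miR-770-3p, so no r over all 10 arrays is given. Pooled, 3 of 15 pairs passed, each of them with miR-770-3p, and by Spearman 0. Within the 6 spermatid arrays of slides 1 and 2, r ran from -0.70 to 0.96 with a median of 0.39, 10 of 15 pairs were positive, and 0 passed after adjustment over the 15 exact permutation tests. There the pair miR-494-3p and miR-770-3p had r = 0.96 (exact permutation p = 0.0153, adjusted 0.181), rho = 0.77 (exact p = 0.103, adjusted 0.308) and r = 0.87 without the 2 farthest arrays. In contrast miR-487b-3p and miR-770-3p, which both fell on slide 3, had r = -0.20 (exact permutation p = 0.706, adjusted 0.706) and rho = 0.09 (exact p = 0.919, adjusted 0.919).

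Among the tested miRNAs other than the members, those whose pattern was most like each member were found over the 20 arrays after removing group means, as a description. For miR-487b-3p they were miR-212-3p (r = 0.94), miR-551b-5p (0.90) and miR-652-5p (0.89). After the slide was removed as well, these fell to 0.69, 0.73 and 0.71. For miR-770-3p they were miR-483-5p (0.94), miR-188-5p (0.92) and miR-874-3p (0.91), and for miR-370-3p miR-125a-3p (0.93), miR-188-5p (0.92) and miR-211-3p (0.91). For miR-134-5p they were miR-3582 (0.91), miR-3557-3p (0.82) and miR-328a-5p (0.79). For miR-494-3p they were miR-3546 (0.89), miR-3564 (0.88) and miR-760-5p (0.87), and for miR-667-3p miR-331-3p (0.82), miR-760-5p (0.77) and miR-3564 (0.73). The members themselves were left out of this search, so it cannot show whether they resembled each other. The points share array and scaling.

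The relation to array brightness was computed for each member within each cell type, 12 in all, against the array's unscaled 75th percentile. By Pearson's r, 0 of 12 passed the permutation test after adjustment, with the lowest adjusted p at 0.0954 for miR-487b-3p in pachytene cells (r = -0.78, Spearman's rho = -0.72, adjusted permutation p = 0.136, and r = -0.75 without the 2 farthest arrays). By Spearman's rho, miR-667-3p passed in pachytene cells (rho = -0.87, adjusted permutation p = 0.0175, with r = -0.54, adjusted permutation p = 0.162), where it was at or next to the floor. In spermatids, miR-494-3p had r = -0.60 (adjusted permutation p = 0.162) and rho = -0.48 (0.329). Without the 2 farthest arrays its r was 0.19, so its value rests on those. Likewise, miR-770-3p went from r = -0.58 (adjusted permutation p = 0.162) to -0.06 without those arrays. miR-667-3p went from r = -0.72 (adjusted permutation p = 0.102) to -0.63. An r under -0.5 was found for 3 of the 6 in each cell type, beside 24.2% of tested miRNAs in pachytene cells and 17.8% in spermatids. After treatment and slide were removed it was found for 2 of the 6 in pachytene cells, miR-487b-3p (-0.83) and miR-667-3p (-0.74), beside 29.4%. In spermatids it was then found for 3, miR-667-3p (-0.90), miR-770-3p (-0.78) and miR-494-3p (-0.62), beside 21.5%. Each level had itself been divided by a percentile of the same array.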

How the data were processed

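Spot intensity on 20 Agilent miRNA arrays was measured in 1 colour, and the authors deposited the scanner output of Agilent Feature Extraction 11.5.1.1, per the file headers, where the processed signal is background-subtracted and not scaled between arrays. The authors also deposited a log2 value table, centred per row, whose names matched 0 of the 6 miRNAs, so it was not used for them. For 1 array, spermatid cyclophosphamide rat 14, the processed signal is given to 3 significant digits.

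Control spots and outlier flags were left out. Each array was divided by its 75th percentile over the 2176 spots well above background on all 20 arrays, brought to a common level, floored at 12.2 (3.61 on the log2 scale) and put on the log2 scale. The 10 spots of a probe were averaged, and of the 2 probes of a member the brighter was used; both probes gave differences of the same sign in the comparisons of cell type and slide. The 217 miRNAs flagged as detected on each array of some group were tested with limma 3.58.1 in R 4.3.3 (4 group means, 16 residual degrees of freedom, Benjamini-Hochberg threshold 0.05). The slide was read from the barcode in the array names. Correlations used 100000 permutations, or all 720 orders for 6 arrays. The scripts were tested on simulated data. The number of arrays limits the precision.

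The rule named all 6 members in every comparison and, for each, the 3 tested miRNAs outside the 6 that were most alike. Members, lists and tests were chosen with earlier results of these data known. The gene table (GRCr8) served for names and order, since the array's build differs.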

Additional observations from a re-analysis of the deposited data

Results flagged for a closer look

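In 24 groups of 5 arrays (6 miRNAs in 4 groups), the end array's gap to its neighbour exceeded Dixon's critical value of 0.71 of the range 5 times; chance flags about 1 in 20 groups. miR-494-3p was high in saline spermatids of rat 16 (11.08), as was miR-667-3p (3.94), on the array of lowest signal. miR-134-5p was high in saline pachytene cells of rat 16 (6.29). miR-770-3p was high in cyclophosphamide pachytene cells of the later 16 (5.67). miR-667-3p in cyclophosphamide pachytene cells of rat 15 stood at 3.61, its distance from the floor being under the second decimal.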

How the results depend on the processing

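Of the 6 miRNAs, the number called higher or lower in spermatids under saline was 2, and under cyclophosphamide 4. Under saline it was 1 with the 75th percentile over all spots, no scaling, the total gene signal, the mean over probes, no filter on dim miRNAs, fitting the compared groups alone, array weights and leaving out the 2 dimmest spermatid arrays (an alternative chosen after seeing the data), 0 with normexp, 4 without slide 3, 5 with the slide or the scan day as a block and 6 within slide 2. Under cyclophosphamide it was 2 with the percentile over all spots, the total gene signal and the mean over probes, 1 with no scaling and no filter, 0 with normexp and 6 once the slide was a block. The slide 3 count of 3 became 0 with no scaling and with normexp and 1 with no filter. The pachytene slide count of 0 became 1 with quantile normalization. The drug counts of 0 became 1, in spermatids, within slide 2. The 3 correlated pairs, counted over the 15 pairs of each cell type together, became 16 with no scaling, 8 with the mean over probes and 17 with normexp. The counts between cell types include miR-667-3p, whose higher value in spermatids was built into its choice. It was among those called under saline within slide 2 and, under cyclophosphamide, among the 4, with the percentile over all spots and with the slide as a block. With no filter more miRNAs enter the adjustment; for the other settings the cause was not tested. Leaving out 1 array at a time gave 1 to 3 calls under saline, 1 to 4 under cyclophosphamide, 1 to 3 for slide 3, 0 to 1 for the pachytene slides and 0 for the drug in each cell type and for the difference of drug effects.

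Single miRNAs changed sign under these settings, none of them past the test except miR-667-3p within slide 2. For the drug in pachytene cells, the sign turned for miR-667-3p at 0.39 with total gene signal, 0.50 with normexp, 0.13 with no floor. It turned for miR-487b-3p at 0.17 with normexp, 0.0088 with slide 2 alone. For the drug in spermatids, the sign turned for miR-134-5p at -0.060 with normexp, -0.080 with slide 2 alone. It turned for miR-370-3p at -0.14 with normexp, -0.19 with the slide as a block, -0.014 with slide 3 left out, -0.74 with slide 2 alone, -0.50 with slide 3 alone, -0.19 with the scan day as a block. It turned for miR-667-3p at -0.19 with normexp, -0.15 with slide 2 alone. It turned for miR-770-3p at -0.043 with normexp, -0.10 with slide 3 left out, -0.52 with slide 2 alone, -0.0092 with the scan day as a block. It turned for miR-487b-3p at -0.040 with slide 3 left out, -0.16 with slide 1 alone. It turned for miR-494-3p at -1.04 with slide 2 alone. Between cell types under saline, the sign turned for miR-487b-3p at -0.16 with the percentile over all spots, -0.39 with no scaling, -0.15 with array weights, -0.12 with the 2 dimmest spermatid arrays left out. It turned for miR-370-3p at -0.13 with no scaling. It turned for miR-134-5p at 0.10 with normexp. Between cell types under cyclophosphamide, the sign turned for miR-370-3p at -0.052 with slide 2 alone. For slide 3, the sign turned for miR-667-3p at 0.017 with quantile normalization, 0.024 with the percentile over all spots, 0.14 with total gene signal, 0.16 with normexp, 0.065 with no floor, 0.16 with the 2 dimmest spermatid arrays left out. Leaving out 1 array turned miR-487b-3p between cell types under saline (from -0.13 to 0.25) and miR-667-3p for slide 3 (from -0.17 to 0.094).

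The rat numbers served as a random replicate block, over all arrays or within a treatment (the second chosen after seeing the data). In the second, the earlier and the later 16 of cyclophosphamide pachytene cells each formed a block of its own. The counts stayed at 2 and 4 for the cell types, with 108 and 116 of 217 miRNAs called, and at 0 for the drug. The consensus correlation was 0.11 and 0.10. Same-numbered arrays of different groups correlated between -0.31 and 0.61, with both ends from arrays of different treatments. Those of the same treatment correlated between -0.30 and 0.18. The cyclophosphamide pachytene arrays of number 16 were not compared. That number occurs 2 times in 1 group, and the numbers were not taken as pairs. The deposited value table was not run, since its names matched none of the 6, and the scanner files' median signal stood in for the mean signal in normexp. Single spots near the floor limit miR-667-3p and the low values of miR-370-3p.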
